A study of Glycine max with 32 samples.

Results

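The 100 most abundant transcripts of soybean leaves took 8.997 to 16.5% of the reads in each of 16 libraries sampled at R5–R6, against 20.9 to 26.4% in each of 16 libraries sampled at V4–V5. These 100 genes were chosen by their measured level, out of 52872 soybean rows in the count table. Counts were expressed as CPM, that is scaled so that every library has the same total, the mean over the 4 wild-type (WT) libraries of V4–V5 grown at ambient CO2 was taken, and the 100 highest rows were kept. A pair of native PsbS genes was left out of the ranking. Levels in those 4 libraries therefore made the list and are given as a description. They enter no comparison between groups tested here, except in 1 alternative fit of all 32 libraries. The closing screen for libraries that stand apart within their group also covers them.

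The libraries came from leaves of field-grown soybean (Glycine max cv. Maverick) in open-air plots called rings, either fumigated to an elevated CO2 level of 600 µmol mol-1 (e[CO2], rings 3, 5, 6 and 8) or left at the ambient level of 410 µmol mol-1 (a[CO2], rings 1, 2, 4 and 7). The study paired fumigated and ambient plots in blocks, but the labels do not say which rings form a block, so the CO2 comparisons here do not use that pairing. Each ring held VPZ-34A and WT plants. VPZ-34A is 1 transgenic line that overexpresses Arabidopsis violaxanthin de-epoxidase, PsbS and zeaxanthin epoxidase, and WT is the untransformed parent cultivar, so a line difference cannot be told apart from a property of this transformation event. The 8 groups were VPZ-34A e[CO2], VPZ-34A a[CO2], WT e[CO2] and WT a[CO2] at R5–R6 (seed filling) and the same 4 at V4–V5 (vegetative growth), with 4 libraries each, 1 per ring.

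In a leaf, a small set of nuclear genes, many of them serving photosynthesis, is transcribed at very high rates, and most of the remaining genes share what is left of the messenger RNA. As soybean leaves pass from vegetative growth into seed filling they supply the developing seeds and later senesce, and the nitrogen held in photosynthetic proteins is moved out of them. A read share is relative: a gene can take a smaller share because its own RNA is scarcer or because other RNAs are more abundant, and fewer cells of a type cannot be told apart from less RNA per cell. CPM values are not divided by transcript length, so the order of the genes mixes the number of transcripts with their length.

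Of the 100 members, 4 stand in the annotation or lists of the study. Glyma.20G150600 and Glyma.10G243800 are homologues of Arabidopsis ELIP1, an early light-induced protein of the chlorophyll a/b-binding family that accumulates under excess light. Glyma.14G093100 is a homologue of Arabidopsis MT2A, a small cysteine-rich metallothionein that binds metal ions. Glyma.17G174500 carries no name there, and stands in the study's list of native counterparts of its transgenes, without saying of which. The other 96 members are given by identifier alone, with no role. The expected leaf markers could therefore not be looked up by name. Of other tissues, 7 of 8 listed seed storage genes were in the table, 5 of them at 0 in every library, and their summed level was 0 to 1.499 CPM at R5–R6 against 1.60 to 6.34 CPM at V4–V5. The 4 leghemoglobin genes of root nodules summed to at most 0.125 CPM at R5–R6 and to 0 CPM at V4–V5. Library totals ran between 16091200 and 63132400 counts.

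The list was steep at its upper end. Rank 1, Glyma.19G046600, averaged 17272 ± 1902 CPM in the 4 libraries that made the ranking (SD, n = 4), 17.0-fold more than rank 100 and 3.32-fold more than rank 10. Glyma.13G046200 and Glyma.19G046800 followed at 16564 ± 1991 and 16428 ± 1743 CPM, and the next pair, Glyma.18G036400 and Glyma.11G221000, at 9738 ± 1533 and 9114 ± 773 CPM. The edge of the list was shallow. Rank 99, Glyma.16G219500, had 1014 CPM and rank 100, Glyma.06G020400, had 1013 CPM, while the next 2 genes outside the list, Glyma.18G244900 and Glyma.18G030400, had 1007 and 990 CPM. The members lay on all 20 chromosomes, with 1 to 9 on each.

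Reads shared with other genes may enter the counts of many members. The authors' counting split a read that mapped to several places fractionally between them, which leaves values that are not whole numbers. A member had such values in a median of 68.8% of the 32 libraries, against 40.6% for the 33887 genes with a mean of at least 10 counts. No member had whole values throughout, and 6 members had none that were whole. Pairs whose ratio barely moved were picked out after their values were seen. Glyma.19G046600 over Glyma.19G046800 stayed between 1.03 and 1.09 in all 32 libraries, Glyma.12G037400 over Glyma.11G111400 between 1.51 and 1.83, Glyma.13G210800 over Glyma.15G102000 between 0.914 and 1.13, and Glyma.18G036400 over Glyma.11G221000 between 0.851 and 1.19. The levels of such partners are uncertain one by one, and shared reads cannot be told apart from shared regulation.

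The first comparison asked how the share of these genes differed between the stages. At R5–R6 the 100 members took 13.4 ± 1.39% of the library in VPZ-34A e[CO2], 12.8 ± 2.82% in VPZ-34A a[CO2], 12.1 ± 2.14% in WT e[CO2] and 13.7 ± 2.53% in WT a[CO2] (SD, n = 4 each). At V4–V5 they took 23.1 ± 1.72%, 23.7 ± 1.93%, 22.8 ± 0.685% and 24.9 ± 1.01% in the same 4 groups, the last being the group that made the list. No R5–R6 library reached the lowest V4–V5 library. Set against the V4–V5 library of the same ring and line, the R5–R6 share was lower in 16 of 16 pairs, by between 6.72 and 14.3 percentage points. Because the members were selected on a high V4–V5 level, a lower share at the other stage is favoured by the choice, and these values are a description with no test.

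**Figure D1:**
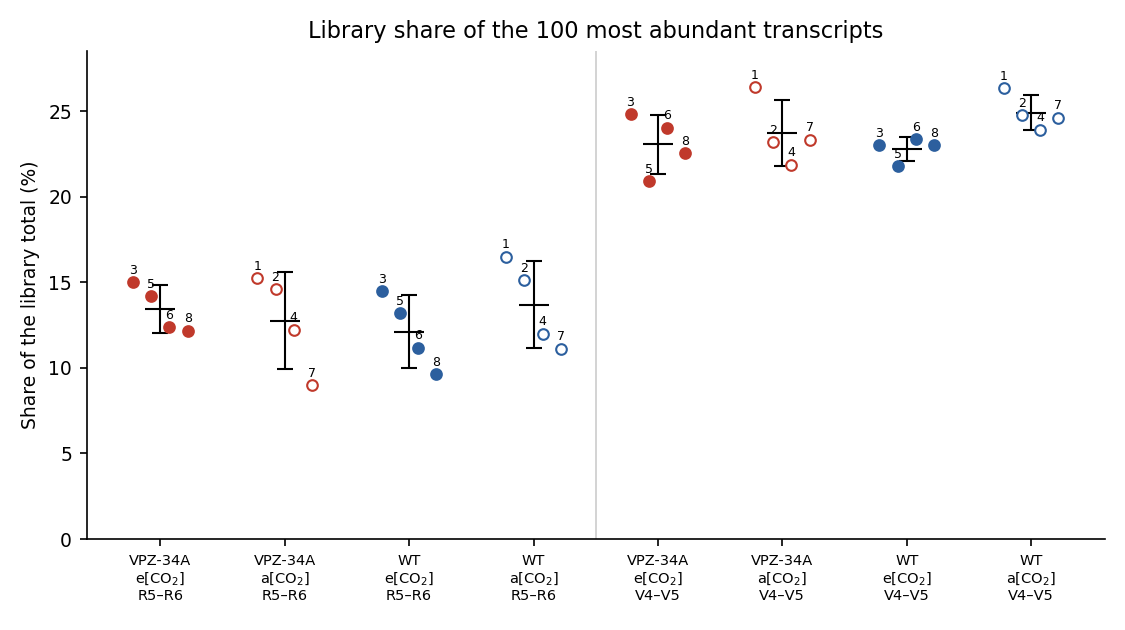
Share of the library total (%, y axis) taken by the 100 members in each of 32 libraries, by group, with R5–R6 on the left and V4–V5 on the right. Points are libraries labelled by ring (filled, e[CO2]; open, a[CO2]; red, VPZ-34A; blue, WT) and bars are the mean ± SD of 4; the R5–R6 libraries lie between 8.997 and 16.5% and the V4–V5 libraries between 20.9 and 26.4%.

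The difference was steepest at the top of the list. The 3 highest members together averaged 1.32% of the library at R5–R6 and 4.76% at V4–V5 (n = 16 each), the 10 highest 4.02% and 9.26%, and ranks 11 to 100 averaged 8.98% and 14.4%. Letting each group have its own 100 highest genes narrowed the gap, to a mean of 16.4% at R5–R6 against 23.7% at V4–V5. The libraries as wholes were thus less concentrated at R5–R6. To reach 50% of all reads took a median of 1667 genes at R5–R6 (1353 to 1969) and 913.5 genes at V4–V5 (726 to 1149), and these ranges did not overlap either.

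Membership of the list changed with the stage and little with line or CO2. At R5–R6 58 of the members were among the 100 highest of VPZ-34A e[CO2], 55 of VPZ-34A a[CO2], 54 of WT e[CO2] and 57 of WT a[CO2]. At V4–V5 the numbers were 92, 95 and 92 in VPZ-34A e[CO2], VPZ-34A a[CO2] and WT e[CO2]. In all, 50 members stood among the 100 highest of all 8 groups and 41 in those of no R5–R6 group. Among the genes that took their place at R5–R6, the highest in WT a[CO2] was Glyma.02G215700, rank 8 there and rank 159 at V4–V5, with 3428 ± 543 CPM against 695 ± 222 CPM (SD, n = 4). Glyma.06G177600, rank 9 against rank 221, had 3118 ± 412 against 515 ± 258 CPM. Glyma.15G177800, rank 11 against rank 1147, had 3055 ± 1425 against 118 ± 41.6 CPM, and its large SD at R5–R6 shows libraries that differed among themselves.

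The stage difference was tested gene by gene with edgeR's quasi-likelihood test over 28 libraries, without the 4 that made the list, as R5–R6 minus V4–V5 averaged over VPZ-34A e[CO2], VPZ-34A a[CO2] and WT e[CO2], with Benjamini-Hochberg adjustment over the 35570 genes tested. All 100 members passed the filter on low counts. Of them, 83 were lower and 4 higher at R5–R6 at an adjusted p under 0.05, and 13 were not called. Over all genes tested, 34.9% were called lower and 36.4% higher. A fall to 50% or less (log2 fold change of -1 or below) was called for 60 members, against 17.7% of all genes. The median log2 fold change was -1.16 over the members and 0.03 over all genes. As with the share, the choice of the list favours falls here, also in libraries it did not use. The 100 highest genes of WT a[CO2] at R5–R6 were split far more evenly between lower and higher, with the values given in the closing section.

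The size of the fall was graded. Of the 83 lower members, 6 fell by more than 8-fold, 16 by 4- to 8-fold, 38 by 2- to 4-fold and 23 by less than 2-fold. The 10 highest ranks had a median log2 fold change of -2.01, with 8 lower and 2 not called, ranks 11 to 50 a median of -1.06 and ranks 51 to 100 a median of -1.21. Ring by ring, with the lines averaged in e[CO2] rings and VPZ-34A alone in a[CO2] rings, since the WT libraries of those rings at V4–V5 made the list, 78 members were lower at R5–R6 in 8 of 8 rings, 2 were higher in 8 of 8, and 20 differed in direction between rings. For 56 members every one of the 16 R5–R6 libraries lay below all 12 tested V4–V5 libraries, against 9.74% of all genes tested. Scaling by library totals in place of edgeR's TMM factors moved the median of all genes to 0.30 and the share of higher calls among all called genes to 66.3%, against 51.04%. Under that scaling 75 members were called lower and 8 higher. CPM values are on library totals and the fold changes on TMM, so a fold change need not equal a ratio of CPM values.

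**Figure D2:**
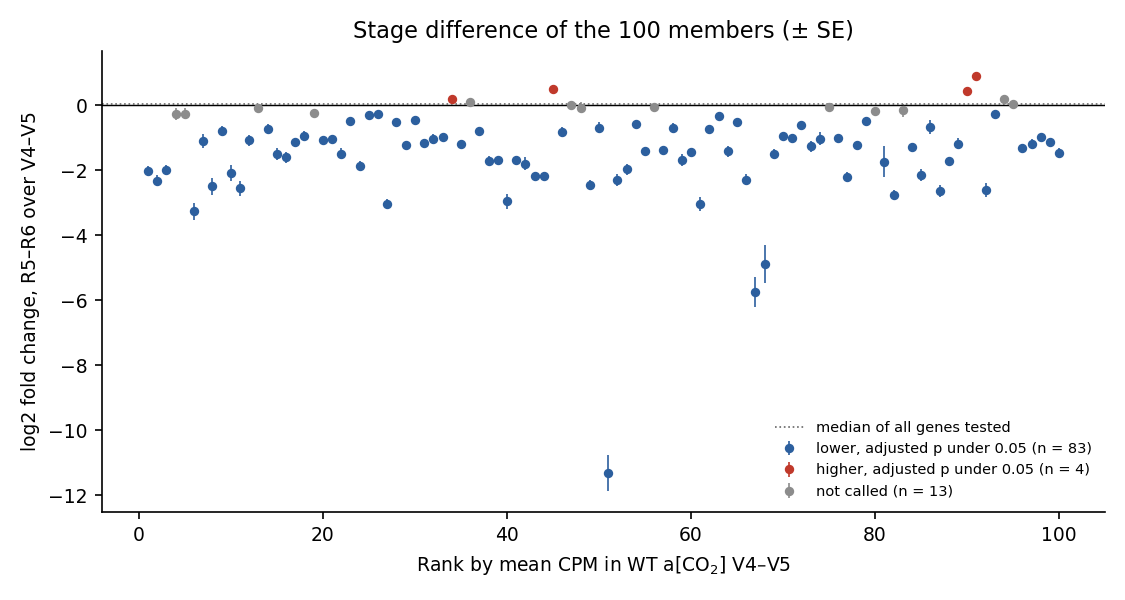
Log2 fold change of R5–R6 over V4–V5 (y axis, ± SE from edgeR, 28 libraries) for each member by its rank (x axis). Members called lower (83), called higher (4) and not called (13) are coloured separately, and the dotted line is the median of all genes tested (0.03); most members lie between 0 and -3 and a single one lies at -11.31.

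The 3 most abundant members fell together. Glyma.19G046600 had 2879 to 6629 CPM at R5–R6 (median 4840, 16 libraries) against 13403 to 19920 CPM at V4–V5 (median 15892, 12 libraries), a 4.06-fold lower level (log2 fold change -2.02 ± 0.16 SE, edgeR adjusted p = 5.45e-11). Glyma.13G046200 had 1935 to 5312 CPM against 13417 to 18287 CPM, 5.00-fold lower (log2 fold change -2.32 ± 0.18, adjusted p = 1.73e-11). Glyma.19G046800, the partner that kept a near-constant ratio to rank 1, was 3.98-fold lower. In none of these 3 did the stages overlap in any library.

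Ranks 4 and 5 behaved otherwise. Glyma.18G036400 had 4015 to 14655 CPM at R5–R6 (median 9047) against 6731 to 10068 CPM at V4–V5 (median 8479), and its log2 fold change of -0.27 ± 0.19 did not pass the test (edgeR adjusted p = 0.199). Glyma.11G221000, its partner in a near-constant ratio, had -0.26 ± 0.18 (adjusted p = 0.194). At R5–R6 both were the 2 most abundant members, and their R5–R6 range was wider than their V4–V5 range on both sides. The lowest R5–R6 values of Glyma.18G036400 were in ring 7 of VPZ-34A (4375 CPM) and ring 8 of WT (4015 CPM), and the highest was in ring 1 of WT (14655 CPM).

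The remaining members of the first 10 all fell. Glyma.19G007700 had 304 to 2051 CPM at R5–R6 against 6937 to 9130 CPM at V4–V5, 9.61-fold lower (log2 fold change -3.26 ± 0.25, adjusted p = 2.22e-11). Glyma.05G007100 had 371 to 2215 CPM against 4858 to 6644 CPM, 5.62-fold lower. Glyma.05G128000 had 250.2 to 1954 CPM against 1955 to 6632 CPM, 4.26-fold lower, with the extremes of the stages just touching. Glyma.08G082900 was 2.15-fold and Glyma.12G037400 1.74-fold lower, and in both the stages overlapped.

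**Figure D3:**
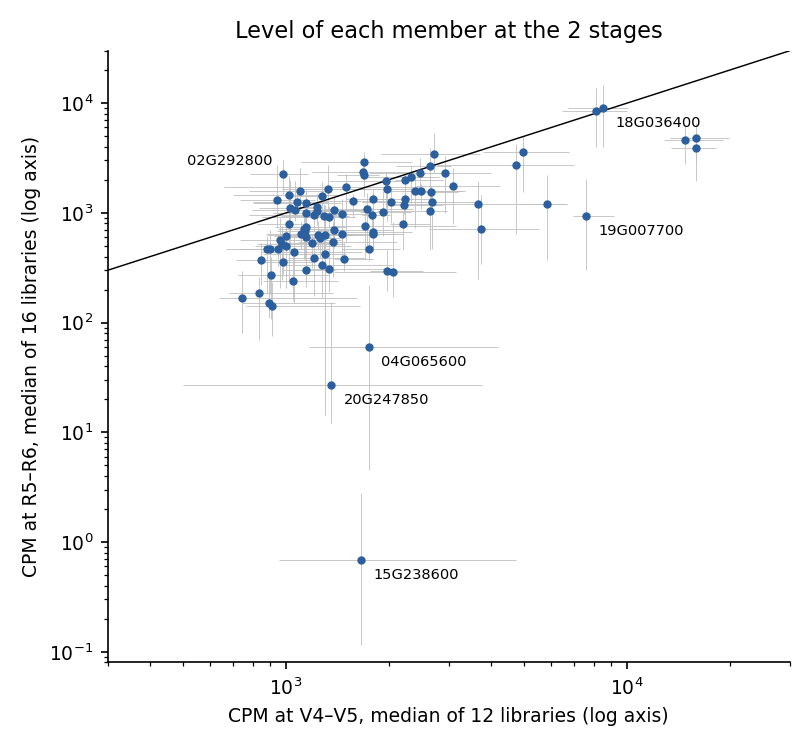
Level of each member at R5–R6 (median CPM of 16 libraries, y axis, log scale) against its level at V4–V5 (median CPM of 12 libraries, x axis, log scale). Grey bars span the lowest to the highest library and the diagonal marks equal levels; Glyma.18G036400 lies near the diagonal with 9047 against 8479 CPM, Glyma.02G292800 above it with 2278 against 978 CPM, and Glyma.15G238600 far below it with 0.682 against 1661 CPM.

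The largest fall by far was that of Glyma.15G238600, rank 51. It had 0.115 to 2.80 CPM at R5–R6 (median 0.682), which is 3 to 112 counts a library, against 954 to 4723 CPM at V4–V5 (median 1661). The log2 fold change was -11.31 ± 0.55 (edgeR adjusted p = 4.67e-15). All 16 R5–R6 libraries were low, whatever the line or the CO2 level. Glyma.20G247850, rank 67, had 12.2 to 153 CPM against 499 to 3758 CPM (log2 fold change -5.74 ± 0.47, adjusted p = 4.95e-11). Glyma.04G065600, rank 68, had 4.54 to 220.2 CPM against 1165 to 4189 CPM (log2 fold change -4.88 ± 0.59, adjusted p = 5.57e-08).

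These 3 genes also varied strongly between libraries within a group, and alike. At V4–V5 Glyma.15G238600 had 4723 CPM in ring 7 of VPZ-34A a[CO2], against 718 CPM in ring 7 of WT a[CO2], its highest and lowest values at that stage. The same 2 libraries of 1 ring gave Glyma.20G247850 3758 and 442 CPM and Glyma.04G065600 4189 and 843 CPM, again the extremes of the stage. Ring 8 was the highest e[CO2] ring for all 3 in both lines at V4–V5, with 3815 CPM in VPZ-34A and 2908 CPM in WT for Glyma.15G238600. At R5–R6 ring 7 of VPZ-34A a[CO2] stood above the other rings of its group in all 3, with 2.80 CPM for Glyma.15G238600, 153 CPM for Glyma.20G247850 and 220.2 CPM for Glyma.04G065600. Samples had been taken over 1 morning interval at each stage, and the time of each sample is not given in the sources used here.

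**Figure D4:**
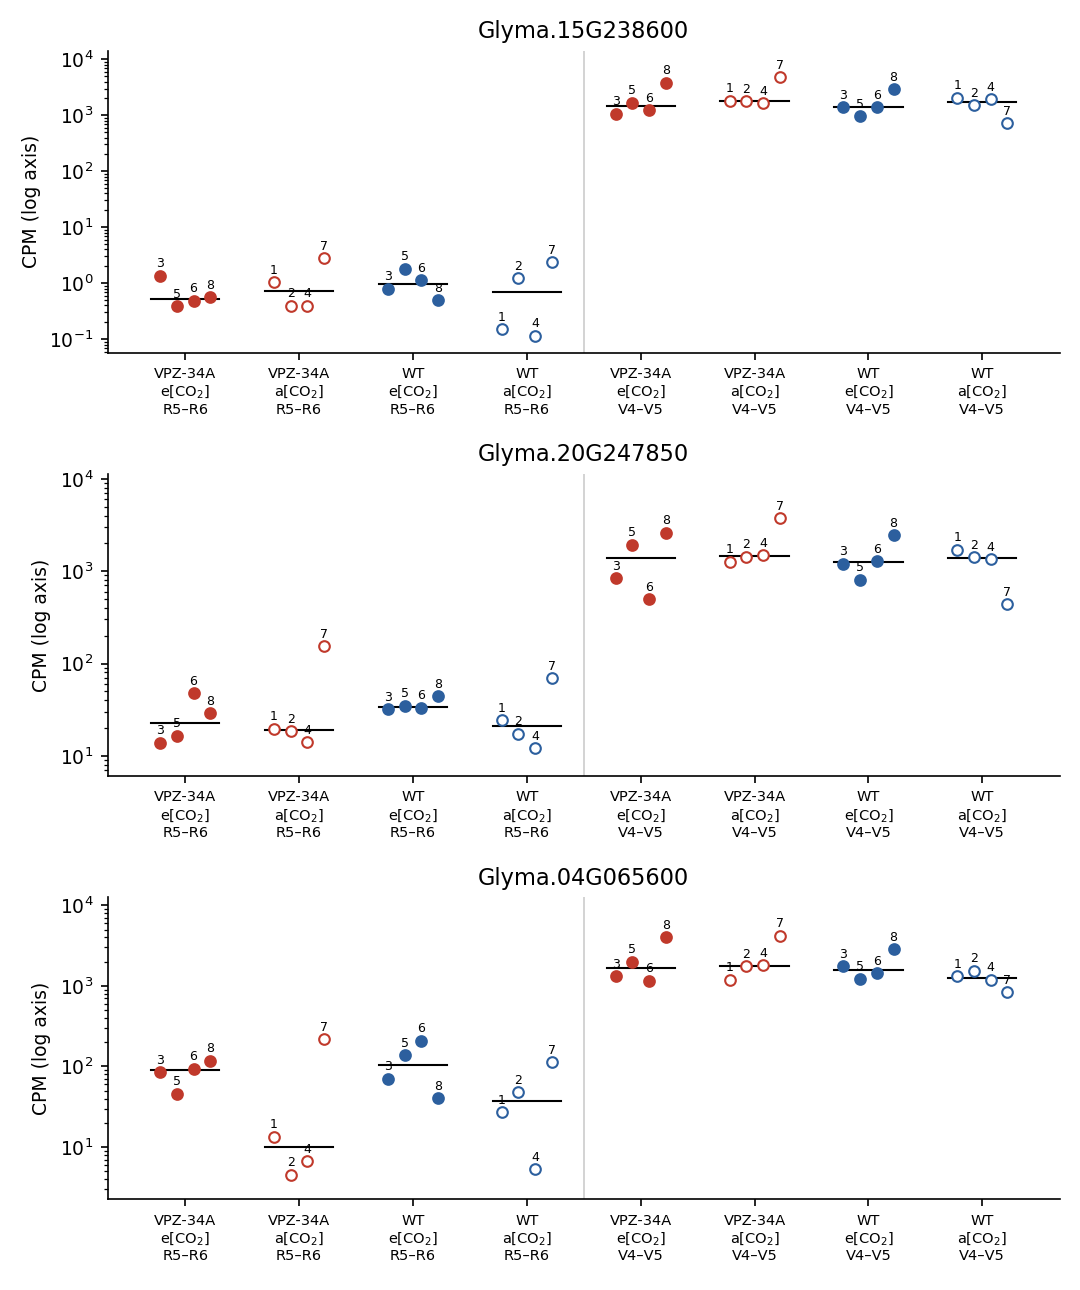
CPM (y axis, log scale) of Glyma.15G238600, Glyma.20G247850 and Glyma.04G065600 in each of 32 libraries, by group. Points are libraries labelled by ring (filled, e[CO2]; open, a[CO2]; red, VPZ-34A; blue, WT) and black lines are group medians; in all 3 genes every R5–R6 library lies below every V4–V5 library, and at V4–V5 ring 7 is the highest of its group in VPZ-34A a[CO2] and the lowest in WT a[CO2].

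The next largest falls, beside that of Glyma.19G007700, were smaller. Glyma.05G022900 had 193 to 458 CPM at R5–R6 against 1768 to 2526 CPM at V4–V5, 8.14-fold lower (log2 fold change -3.02 ± 0.15). Glyma.01G115900 had 74.7 to 236 CPM against 761 to 1650 CPM, 8.21-fold lower. Glyma.06G295700 had 170.1 to 831 CPM against 1380 to 3156 CPM, 7.77-fold lower. Glyma.16G145800 had 110.3 to 258 CPM against 740.0 to 1396 CPM, 6.72-fold lower. In each of these 4 the stages did not overlap.

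Few members rose. Glyma.02G292800, rank 91, had 1471 to 3012 CPM at R5–R6 against 784 to 1157 CPM at V4–V5, 1.87-fold higher (log2 fold change 0.90 ± 0.13, edgeR adjusted p = 8.75e-07) and higher in 8 of 8 rings. It was the only member whose 16 R5–R6 libraries all lay above the 12 tested V4–V5 libraries. Glyma.14G021800 rose 1.40-fold (adjusted p = 0.000899) and Glyma.19G166500 1.36-fold (adjusted p = 0.00258), each in 7 of 8 rings. Glyma.04G019100 was 1.15-fold higher in 8 of 8 rings (adjusted p = 0.0389), and that call was lost under 10 of 17 other settings, with adjusted p up to 0.130.

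Averaged over the 3 tested groups and scaled by TMM, the annotated members were among the steady ones or fell slightly. Between the stages the ELIP1 homologue Glyma.20G150600 had a log2 fold change of -0.08 ± 0.12 (edgeR adjusted p = 0.560) and Glyma.10G243800 one of 0.00 ± 0.12 (adjusted p = 0.996). Scaling by library totals gave Glyma.10G243800 0.27 and an adjusted p of 0.0265. The MT2A homologue Glyma.14G093100 had -0.05 ± 0.12 (adjusted p = 0.724). In ratios of group means on CPM, R5–R6 over V4–V5, Glyma.14G093100 had 1.23 in VPZ-34A e[CO2], 0.912 in VPZ-34A a[CO2], 1.42 in WT e[CO2] and 1.52 in WT a[CO2]. In the same order Glyma.20G150600 had 1.17, 0.975, 1.32 and 1.37, and Glyma.10G243800 had 1.24, 0.992, 1.42 and 1.38. These ratios differed between groups and are a description with no test. They are scaled by library totals, under which the median log2 fold change of all genes was 0.30, against 0.03 with TMM. The ratios are therefore not on the scale of the fold changes. Glyma.17G174500 fell 1.42-fold (log2 fold change -0.51 ± 0.10, adjusted p = 0.000128) and was lower in 7 of 8 rings. The steadiest member over all 32 libraries was Glyma.08G086600, whose highest library exceeded its lowest by 1.87-fold, against a median of 4.32-fold over the members and more than 10-fold for 19 of them.

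The fall of the median member was of similar size in every group. In ratios of group means on CPM, R5–R6 over V4–V5, the median member stood at 0.575 in VPZ-34A e[CO2], 0.525 in VPZ-34A a[CO2], 0.532 in WT e[CO2] and 0.532 in WT a[CO2], with 81, 83, 89 and 84 members lower. No member's stage difference was called different between e[CO2] and a[CO2] within VPZ-34A, or between VPZ-34A and WT within e[CO2] (edgeR, 0% of all genes called in both). At an unadjusted p under 0.05 there were 0 members in either test, against 1567 and 900 of 35570 genes. A lack of calls does not show equal falls. In simulated data the first of these tests recovered 45.5% of genes changed by 1.5 on the log2 scale, and 2.04% of those changed by 0.5. The changed genes were drawn at random from all genes tested, and libraries were simulated as independent. The rates are therefore not those of the members.

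The next comparisons asked whether CO2 or line changed the level of these genes within a stage. At R5–R6, over 16 libraries and 33200 genes tested with edgeR, 0 members were called for e[CO2] against a[CO2], 0 for VPZ-34A against WT and 0 for the line by CO2 interaction. Over all genes the calls were 0%, 0.0904% and 0% in the same order, so the background was near 0 as well. This fit has no ring term. The study removed the ring effect with ComBat-seq and used limma. It reported genes responding to CO2, to line and to their interaction at this stage. The calls here therefore do not show that a response is absent. In the fit here 5, 3 and 3 members had an unadjusted p under 0.05, against 4466, 2494 and 801 of all genes. At V4–V5, where WT a[CO2] was kept out, 0 members were called for e[CO2] against a[CO2] in VPZ-34A (0% of 33379 genes) and 0 for VPZ-34A against WT at e[CO2] (0.033%), with 4 and 0 members and 1941 and 502 genes in all at an unadjusted p under 0.05. limma-voom called 0 members in all of these comparisons.

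DESeq2 called 2 members for e[CO2] against a[CO2] at R5–R6, Glyma.17G174500 (log2 fold change -0.48, adjusted p = 0.0306) and Glyma.04G019100 (-0.22, adjusted p = 0.0494). In edgeR the same genes had -0.49 ± 0.14 (adjusted p = 0.180) and -0.23 ± 0.10 (adjusted p = 0.341). With ring 7 left out, edgeR called Glyma.04G065600 higher at e[CO2] (log2 fold change 2.64, adjusted p = 0.0306), against 0.80 ± 0.72 (adjusted p = 0.664) with all rings. Its a[CO2] level at R5–R6 in ring 7 was 220.2 CPM in VPZ-34A and 113 CPM in WT, against 4.54 to 48.2 CPM in the other 6 a[CO2] libraries. Without ring 7 edgeR called 518 of 33434 genes in all, so 1 of 100 members is not above the background.

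Small shifts in 1 direction ran through the list without reaching the threshold, and some rested on 1 ring. At R5–R6 81 of 100 members had a negative log2 fold change for e[CO2] against a[CO2], with a median of -0.12, against 53.0% of all genes. With library totals as the scale it was 67 members, against 41.3% of all genes. Without ring 1 it was 43 members, with a median of 0.04, so the direction turned, and over the other rings left out it was 60 to 90 members. Taken by line, 54 members were negative in VPZ-34A (median -0.01) and 91 in WT (median -0.22). The medians of all genes were -0.02 and -0.003. At V4–V5 in VPZ-34A it was 84 members (median -0.13) against 51.3%, and with library totals 71 members against 38.8%. The line by CO2 interaction at R5–R6 was negative for 18 members and positive for 82 (median 0.26), against 52.8% of all genes negative, and leaving out 1 ring gave 13 to 27 negative. For VPZ-34A against WT at R5–R6 71 members were positive (median 0.06). At V4–V5 and e[CO2] 62 were positive (median 0.03), but without ring 3 62 were negative, with a median of -0.05. In these line tests with all rings, 50.4% and 50.2% of all genes were negative. The difference of the stage effect between CO2 levels in VPZ-34A was positive for 74 members (median 0.15). That between lines at e[CO2] was positive for 75 (median 0.14). Of all genes, 53.1% and 52.4% were negative in the same order. The members share libraries and reads, and 1 library with a low summed share moves many of them at once, so these counts were not tested.

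The summed share at R5–R6 differed more between the rings of a group than between the group means. At R5–R6, among e[CO2] rings, VPZ-34A took 15.02, 14.2, 12.4 and 12.2% in rings 3, 5, 6 and 8, and WT took 14.5, 13.2, 11.2 and 9.64% in the same rings. Among a[CO2] rings VPZ-34A took 15.2, 14.6, 12.2 and 8.997% in rings 1, 2, 4 and 7, and WT took 16.5, 15.1, 11.998 and 11.1%. The order of the 4 rings was the same in both lines at either CO2 level. At V4–V5 the order differed between the lines at both CO2 levels. Ring 7 of VPZ-34A held the lowest of the 16 R5–R6 values for 43 members and ring 8 of WT for 22, while ring 1 of WT held the highest for 31. Without rings 7 and 8 the R5–R6 libraries took 11.2 to 16.5% and the V4–V5 libraries 20.9 to 26.4%.

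Spread between libraries of a group was larger at R5–R6 in 2 of the 3 groups that could be compared. The median coefficient of variation of a member was 14.4% in VPZ-34A e[CO2], 28.1% in VPZ-34A a[CO2], 20.5% in WT e[CO2] and 26.2% in WT a[CO2] at R5–R6, against 16.5%, 14.96% and 9.05% in the first 3 of these groups at V4–V5. For all genes tested the corresponding medians were 19.2%, 25.4%, 23.7% and 22.2% at R5–R6 and 19.997%, 21.0% and 18.6% at V4–V5. The median of the members was thus below that of all genes tested at V4–V5 and not in the a[CO2] groups at R5–R6. The genes tested reach down to low counts, and genes of like level were not compared. Steadiness is therefore not shown to be a trait of the members.

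The clearest line differences among the members were those of the ELIP1 and MT2A homologues at R5–R6 and a[CO2]. The study annotated these genes in lists it drew from the same samples, so their direction here is not independent evidence. Glyma.14G093100 had 717, 961, 830 and 807 CPM in VPZ-34A a[CO2], against 1595, 2179, 1666 and 1839 CPM in WT a[CO2], in rings 1, 2, 4 and 7. Every VPZ-34A library was below every WT library. At e[CO2] the gene had 1060, 1390, 1812 and 1405 CPM in VPZ-34A and 1499, 1661, 1266 and 1645 CPM in WT, in rings 3, 5, 6 and 8, and the lines overlapped.

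Glyma.20G150600 had 2881, 3109, 2470 and 2289 CPM in VPZ-34A a[CO2] at R5–R6 against 4417, 5340, 4975 and 4337 CPM in WT a[CO2], and Glyma.10G243800 had 1647, 1577, 1077 and 1255 CPM against 2149, 2738, 2010 and 2263 CPM. Neither overlapped between the lines. These 3 were the only members with every VPZ-34A library below every WT library in that pair of groups, and 0 members had the reverse. Over all 33200 genes 2.46% lay wholly below and 1.83% wholly above, so 3 of 100 members is near the background.

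A contrast of the lines within each CO2 level was added after these values had been seen. At a[CO2] edgeR called 1 member, Glyma.14G093100 (log2 fold change -1.11 ± 0.18, adjusted p = 0.0355), of 0.0602% of all genes called. With the ring as a replicate block its adjusted p was 0.0541, so the paired fit lost the call. A filter of at least 10 counts in every library also ended it (adjusted p = 0.107), as did leaving out any one of rings 1, 2, 4, 5, 7 or 8, with adjusted p between 0.0767 and 0.346, while the log2 fold change stayed between -1.14 and -1.09. DESeq2 called it with an adjusted p of 1.74e-07 and also called Glyma.20G150600 (log2 fold change -0.80, adjusted p = 0.00159), for which edgeR gave 0.393. Within e[CO2] 0 members were called (0.0301% of all genes), with -0.08 ± 0.18 for Glyma.14G093100. Contrasts of e[CO2] against a[CO2] within VPZ-34A and within WT called 0 members in edgeR, as they called 0% of all genes. DESeq2 called 1 member within VPZ-34A, Glyma.14G093100 higher at e[CO2] (log2 fold change 0.71, adjusted p = 0.0220), among 146 genes, and 0 members within WT.

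The interaction compares these line differences directly. It was 1.04 ± 0.26 on the log2 scale for Glyma.14G093100, 0.84 ± 0.27 for Glyma.20G150600 and 0.77 ± 0.29 for Glyma.10G243800, at unadjusted p of 0.00103, 0.00656 and 0.0180, and edgeR's adjusted p was 0.999985 in each. A different line effect at the 2 CO2 levels was therefore not shown over all genes tested. At V4–V5 Glyma.14G093100 had 785.7 to 1113 CPM in VPZ-34A a[CO2] and 782 to 1756 CPM in WT a[CO2], which overlap.

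**Figure D5:**
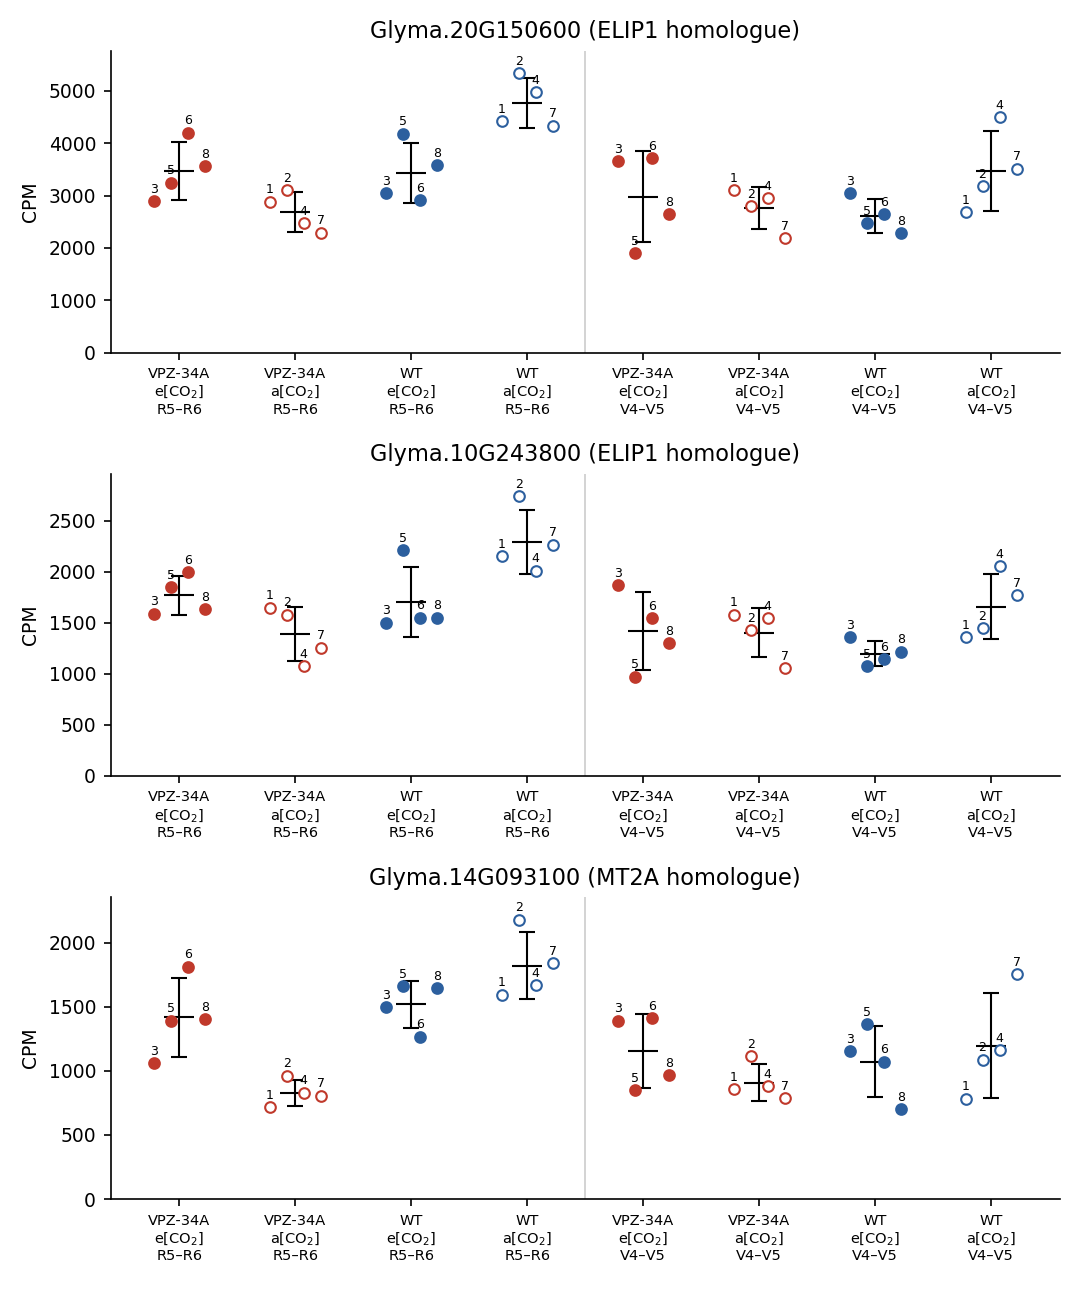
CPM (y axis) of the ELIP1 homologues Glyma.20G150600 and Glyma.10G243800 and the MT2A homologue Glyma.14G093100 in each of 32 libraries, by group. Points are libraries labelled by ring (filled, e[CO2]; open, a[CO2]; red, VPZ-34A; blue, WT) and bars are the mean ± SD of 4; at R5–R6 every VPZ-34A a[CO2] library lies below every WT a[CO2] library in all 3 genes.

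Comparisons that use the WT a[CO2] group of V4–V5 can only be described. The mean of WT e[CO2] was below that of WT a[CO2] for 78 of 100 members at that stage, with a median ratio of 0.922. The mean of VPZ-34A a[CO2] was below that of WT a[CO2] for 67 members, with a median ratio of 0.947. Genes picked for a high value in 1 group tend to be lower in any other, and no member stood at 0.5 or less of its WT a[CO2] level in either.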

How the data were processed

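Leaf RNA was sequenced as poly(A) libraries of single-end reads, 32 in all. Per the submitters' processing notes the tools were Trimmomatic 0.39, STAR 2.7.10a and featureCounts of Subread 2.0.4. The authors mapped reads onto a reference made of the Wm82.a4.v1 assembly plus the sequences of the 3 introduced genes, and deposited estimated counts per gene in which a read with several alignments is divided between them. Expected counts were rounded to whole numbers for edgeR 4.0.16 (R 4.3.3, filterByExpr, TMM, quasi-likelihood test) and DESeq2 1.42.0, and limma 3.58.1 was the other alternative. SE is the log2 fold change divided by the square root of F. Scripts were tested on simulated data. There the interaction test at R5–R6 recovered 20% of genes changed by 1.5 on the log2 scale, and 0% of those changed by 0.5. These genes were drawn at random from all genes tested, not from the members. There were 0 columns of no mapped sample.

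The members and lists were chosen with earlier results of these data known. Genes named are the 10 highest members, the up to 8 largest falls and rises called and moving alike in 8 of 8 rings (VPZ-34A alone in a[CO2] rings), the annotated members, the genes on either side of the list's edge, the 3 highest non-members of WT a[CO2] at R5–R6, and any other singled out after its values were seen (near-constant pairs, Glyma.14G021800, Glyma.19G166500, Glyma.08G086600). None of the 100 identifiers matched the RefSeq table, so role groups, a pathway list, a ranking per coding length and sequences are not reported here. Samples of 1 ring share a plot: the deviations of both lines of a ring correlated over genes with a median r of 0.331 at R5–R6 (-0.02 to 0.594) and 0.203 at V4–V5 (-0.10 to 0.395). Per the study's methods, a sample pooled leaf disks of 3 plants of a plot. The main fits hold no ring term. Their p-values measure the spread between libraries of a group, 1 per ring, and count both lines of a ring as independent. For CO2 at R5–R6 the lowest adjusted p of a member was 0.191 in limma-voom, and 0.462 with rings as correlated blocks.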

Additional observations from a re-analysis of the deposited data

Results flagged for a closer look

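Of 192 groups of 4 libraries examined (the summed share and the CPM of 23 named members in 8 groups, the list-making WT a[CO2] group of V4–V5 included), 17 held a library that stood apart from the other 3 by Dixon's criterion, 8.85%, where chance gives about 1 in 20. None of them concerned the summed share. Ring 7 of VPZ-34A a[CO2] stood above its group at R5–R6 for Glyma.20G247850 (153 CPM, the others 13.98 to 19.7) and Glyma.04G065600 (220.2 CPM, the others 4.54 to 13.5), and at V4–V5 for Glyma.15G238600 (4723 CPM, the others 1641 to 1831) and Glyma.20G247850 (3758 CPM, the others 1272 to 1497). Ring 1 of VPZ-34A a[CO2] at V4–V5 stood above its group for Glyma.19G046800 (19057 CPM), Glyma.01G115900 (1650 CPM) and Glyma.05G022900 (2526 CPM), and this library took the highest summed share of the 32, 26.4%. Ring 3 of WT e[CO2] at R5–R6 was high for Glyma.05G128000 (1258 CPM, the others 864 to 886) and Glyma.01G115900 (219 CPM, the others 95.1 to 103). Ring 5 of that group was high for Glyma.10G243800 (2213 CPM), and at V4–V5 ring 5 of WT e[CO2] was low for Glyma.13G046200 (13417 CPM, the others 15953 to 16264). In WT a[CO2] at R5–R6, ring 1 was high for Glyma.06G295700 (831 CPM) and low for Glyma.04G019100 (2038 CPM), and ring 4 was high for Glyma.17G174500 (1627 CPM). In WT a[CO2] at V4–V5, ring 4 was high for Glyma.06G295700 (2428 CPM) and ring 7 for Glyma.02G292800 (1465 CPM). Ring 6 of VPZ-34A e[CO2] at V4–V5 was high for Glyma.01G115900 (1398 CPM). What set these libraries apart was not tested.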

How the results depend on the processing

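Over 17 other settings, 1 of which fits all 32 libraries including those that made the list (86 called), the stage test called 82 to 89 members, 75 to 85 lower and 3 or 4 higher, except that library totals gave 8 higher. Leaving out 1 ring at a time gave 82 to 87 called (79 to 84 lower and 3 or 4 higher), and 74 members were lower and 3 higher (Glyma.02G292800, Glyma.14G021800, Glyma.19G166500) under every setting (Glyma.15G238600, which at least 10 counts in every library leaves untested, is not among the 74). With the ring as a replicate block (paired fit) 89 were called, 85 lower and 4 higher. The planned line, CO2 and interaction tests still called 0 members. At an unadjusted p under 0.05 in edgeR, the block gave 10 members for line and 20 for the interaction at R5–R6, against 3 in each without it. Their lowest adjusted p was 0.0876 and 0.941. All genes were not counted at the unadjusted threshold, so these counts have no background and are no result about the members. For CO2 at R5–R6 the block gave 2 members in limma-voom, against 7 without it, again with no count over all genes. Of the 100 highest genes of WT a[CO2] at R5–R6, 43% were lower and 36% higher at R5–R6. For the 100 members it was 83 and 4, and for all genes tested 34.9% and 36.4%. The balance of lower and higher calls thus depended on the stage used to make the list. The median share over 32 libraries was 18.7% for 100 members, 14.004% for 50, 25.05% for 200 and 19.98% for each group's own 100. Members called for CO2 at R5–R6 numbered 0, but 2 in DESeq2 and 1 without ring 7 (0 to 1 over the rings left out), and for line 0, but 1 in DESeq2 (Glyma.14G093100, log2 fold change -0.59, adjusted p = 0.000595) and 1 within a[CO2] only, a contrast added after seeing the data. No setting called a member in the interaction, at V4–V5 or in the differences of the stage effect. The cause of these changes was not tested. Among named members, 378 alternative values kept their side of the threshold, 10 lost a call (all Glyma.04G019100) and 2 gained one. A ranking per coding length was not run. Fold changes of Glyma.15G238600 rest on 3 to 112 counts a library at R5–R6.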
